A study of Mus musculus with 12 samples.

Results

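The conjugation enzyme genes described here are the protein-coding mouse genes of GENCODE release 21 whose names begin with Ugt, Gst or Sult in the forms used for UDP-glucuronosyltransferases (UGT), glutathione S-transferases (GST) and sulfotransferases (SULT). They were chosen by name and not by any measured value. There are 66 of them among 21853 protein-coding genes, with 22 UGT, 23 GST and 21 SULT genes. Mouse liver was measured by ChIP-seq, and the data are 3 lists of peaks, each made from 2 ChIP libraries. One list holds LSD1 peaks of wild-type C57BL/6 liver. The other lists hold H3K4me2 peaks of control and LSD1-LKO liver. Both H3K4me2 groups carried LSD1 fl/fl alleles and were, in the mouse studies, injected by tail vein at 6 to 7 weeks of age. The controls received AAV8-TBG-GFP, and the LSD1-LKO mice received AAV8-TBG-Cre. The Tbg promoter drives Cre in hepatocytes, so the other cells of the LSD1-LKO liver keep LSD1. The diet of the ChIP-seq mice is not named in the labels or in the ChIP-seq methods.

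UGT, GST and SULT enzymes attach glucuronic acid, glutathione or sulfate to bilirubin, bile acids, steroids, drugs and reactive products of lipid oxidation, which makes these compounds easier to excrete. The liver is a main site of this work, and many of the genes lie in tandem clusters of close copies. LSD1 is a demethylase that removes methyl groups from mono- and dimethylated lysine 4 of histone H3. H3K4me2 marks active and poised promoters and enhancers.

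A promoter was the sequence within 1 kb of any TSS of a gene, and a gene was called marked when at least 1 bp of its promoter lay in a listed peak. A listed peak is one that was called in both libraries of its group. A list has no reads, so the depth of the libraries is unknown. The lists hold 14584 LSD1, 43891 control H3K4me2 and 50675 LSD1-LKO H3K4me2 entries, so the LSD1-LKO list is the longer of the H3K4me2 lists. Peak scores were compared as percentiles within a list, ordered by the −log10 p-value averaged over both libraries. Fold enrichments are given as deposited and were not scaled between libraries. Positions are in mm10 (GRCm38). Each list is 1 record for its group and genes are not replicates, so counts are given beside the same count over all protein-coding genes and without a test. In bulk liver, fewer cells of a type and less of a mark per cell cannot be told apart. Of 8 hepatocyte marker genes, 6 were marked by H3K4me2 in control and 7 in LSD1-LKO. No promoter of 5 Kupffer cell and macrophage markers or of 5 lymphocyte markers was marked in either list. Among 5 markers each, the counts in control and LSD1-LKO were 0 and 1 for endothelial cells, 1 and 2 for stellate cells and 3 and 2 for cholangiocytes. The part of other cell types in the values below was not tested.

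The promoter sequences below are the RefSeq windows (GRCm38.p6) that run from 250 bases before a start to 50 bases after it. They were found for 58 of the 66 genes, in 70 windows. The first set shows the gene of each family with the highest-ranking LSD1 peak, because an LSD1 peak covers each of these windows from end to end. Bases from the start on are in capitals. Ugt3a1 is at chr15:9279579-9279878 on the plus strand, Gstp3 at chr19:4059398-4059697 on the minus strand and Sult1a1 at chr7:126676369-126676668 on the minus strand.
Ugt3a1: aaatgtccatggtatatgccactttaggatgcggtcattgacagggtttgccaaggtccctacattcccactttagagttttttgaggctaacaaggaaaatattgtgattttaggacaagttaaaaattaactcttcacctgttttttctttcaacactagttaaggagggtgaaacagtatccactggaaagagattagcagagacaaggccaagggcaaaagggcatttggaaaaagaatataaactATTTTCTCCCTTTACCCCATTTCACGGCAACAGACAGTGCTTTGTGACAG
Gstp3: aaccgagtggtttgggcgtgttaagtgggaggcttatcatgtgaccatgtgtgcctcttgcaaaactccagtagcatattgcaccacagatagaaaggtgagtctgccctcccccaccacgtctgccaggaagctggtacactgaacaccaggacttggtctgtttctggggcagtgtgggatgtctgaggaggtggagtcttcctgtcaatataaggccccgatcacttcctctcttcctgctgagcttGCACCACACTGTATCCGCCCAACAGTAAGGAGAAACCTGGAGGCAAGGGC
Sult1a1: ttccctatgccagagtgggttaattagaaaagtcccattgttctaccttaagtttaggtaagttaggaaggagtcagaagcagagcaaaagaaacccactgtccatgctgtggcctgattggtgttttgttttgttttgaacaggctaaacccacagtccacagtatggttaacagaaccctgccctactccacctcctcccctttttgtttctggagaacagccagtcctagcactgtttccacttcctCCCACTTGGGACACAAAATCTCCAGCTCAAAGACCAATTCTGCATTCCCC

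The second set shows the closest pair of windows among the genes, Ugt2b37 and Ugt2b38, because both genes were marked by H3K4me2 in the control list alone. Capitals mark bases that differ in the alignment or have no partner. In all, 274 bases were identical and 12 were mismatched, an identity of 95.8% of the aligned bases. Ugt2b37 is at chr5:87254739-87255038 and Ugt2b38 at chr5:87424154-87424453, both on the minus strand.
Ugt2b37: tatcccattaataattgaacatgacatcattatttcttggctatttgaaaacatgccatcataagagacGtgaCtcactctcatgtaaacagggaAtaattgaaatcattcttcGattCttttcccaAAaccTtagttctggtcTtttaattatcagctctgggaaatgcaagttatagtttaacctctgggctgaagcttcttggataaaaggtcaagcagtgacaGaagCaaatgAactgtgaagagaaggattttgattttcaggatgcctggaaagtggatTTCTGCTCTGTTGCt
Ugt2b38: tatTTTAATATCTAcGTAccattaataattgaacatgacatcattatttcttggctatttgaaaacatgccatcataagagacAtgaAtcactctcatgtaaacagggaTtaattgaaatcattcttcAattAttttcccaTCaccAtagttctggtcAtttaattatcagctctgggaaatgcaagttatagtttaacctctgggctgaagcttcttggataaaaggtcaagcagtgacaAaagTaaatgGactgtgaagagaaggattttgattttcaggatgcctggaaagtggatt

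The third set shows windows with the letters GTTAATNAT, a form of the site of the liver transcription factor HNF1, on either strand. These letters were in 8 of the 70 windows (11.4%) and in 0.801% of the 32851 windows of all genes. Close copies were counted as separate windows. Identity over the aligned bases was 94.2% for Sult2a3 and Sult2a4 and 84.7% for Ugt1a9 and Ugt1a10. The match is in capitals with 20 bases on either side, and its first base lay 28 to 107 bases before the start.
Ugt1a1: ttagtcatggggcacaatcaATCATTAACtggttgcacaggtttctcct
Ugt1a9: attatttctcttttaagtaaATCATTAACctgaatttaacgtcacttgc
Ugt1a10: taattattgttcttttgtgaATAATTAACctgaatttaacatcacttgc
Sult1d1: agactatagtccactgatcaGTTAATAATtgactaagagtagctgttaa
Sult2a3: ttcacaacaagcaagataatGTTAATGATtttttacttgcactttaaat
Sult2a4: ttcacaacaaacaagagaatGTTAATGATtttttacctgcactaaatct
Sult2a5: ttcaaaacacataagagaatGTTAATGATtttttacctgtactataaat
Sult2a6: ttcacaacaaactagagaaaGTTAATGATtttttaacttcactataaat
These stretches are at chr1:88211895-88211943, chr1:88070665-88070713 and chr1:88055317-88055365 for the Ugt1a genes, all on the plus strand. Sult1d1 is at chr5:87569057-87569105, and the Sult2a stretches are at chr7:14123071-14123119, chr7:13989667-13989715, chr7:13623919-13623967 and chr7:14254913-14254961. Sult2a5 is on the plus strand and the other SULT genes are on the minus strand. The 8 genes had no LSD1 promoter peak, which 22.7% of the 66 genes and 23.6% of all protein-coding genes had. Ugt1a1 and Sult1d1 were marked by H3K4me2 in both lists, Sult2a3 in the LSD1-LKO list alone, and 5 genes in neither list. Neither list marked 28.8% of the 66 genes and 38.0% of all protein-coding genes. With so few genes, and close copies among them, no difference from these shares was tested. TGACNNNGC, the core of the antioxidant response element, was in 4.29% of the windows and 12.4% of all. GCGTG, the core of the dioxin response element, was in 21.4% and 32.4%. CAAAGTCCA, a form of the HNF4 site, was in 1 window, that of Sult1b1 (1.43% and 0.475%). The matches describe the letters only. The promoters were poor in CpG, with a median observed over expected CpG of 0.20 against 0.51 over all protein-coding genes. The GST promoters had a median of 0.34, the UGT promoters 0.19 and the SULT promoters 0.17.

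The first question was where LSD1 lay in these genes in wild-type liver. LSD1 was at the promoter of 15 of the 66 genes (22.7%), and 23.6% of all protein-coding genes had an LSD1 promoter peak. By family, 8 GST, 5 UGT and 2 SULT promoters were bound. The UGT count includes Ugt2b37, whose promoter the peak reached by 1 bp. In the gene body or 5 kb around it, 32 genes (48.5%) had an LSD1 peak, against 38.6% of all protein-coding genes. These were 15 of 22 UGT, 12 of 23 GST and 5 of 21 SULT genes. The SULT count includes Sult6b1, whose peak lay inside another gene, Eif2ak2. Gene length and shared gene bodies enter the wider count. With the 9 overlapping Ugt1a genes counted as 1 locus, 24 of 58 genes or loci (41.4%) had a peak, closer to the 38.6% of all genes. UGT was then 7 of 14 (50%) and GST 12 of 23 (52.2%), so the order of these families turned.

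**Figure D1:**
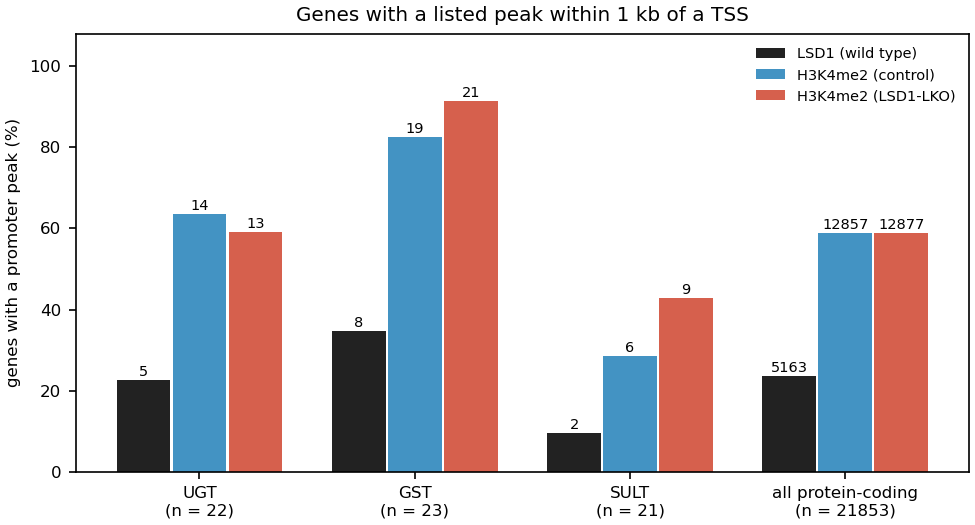
Percent of genes with a listed peak within 1 kb of a TSS (y axis) for UGT, GST, SULT and all protein-coding genes, with the number of genes above each bar. GST promoters were marked by H3K4me2 in 19 control and 21 LSD1-LKO cases of 23, while SULT promoters were marked in 6 and 9 of 21.

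There were 42 distinct LSD1 peaks in these regions, 17 of them at promoters of these genes and 7 in the regions of several genes. Their percentiles among all LSD1 peaks ran from 1.52 to 91.0 with a median of 53.8. Promoter peaks had a median percentile of 70.9, and the LSD1 promoter peaks of all genes had 70.5. The peaks outside the promoters of these genes had a median of 48.5. Some of them lay at promoters of other genes. The Sult6b1 peak was 261 bp from the TSS of Eif2ak2, and a Sult1a1 peak was 916 bp from that of Sgf29. LSD1 enrichment was low in both libraries. MACS fold enrichment over the control library was 1.50 to 4.23 in the first-listed library and 1.73 to 5.39 in the second-listed one.

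**Figure D2:**
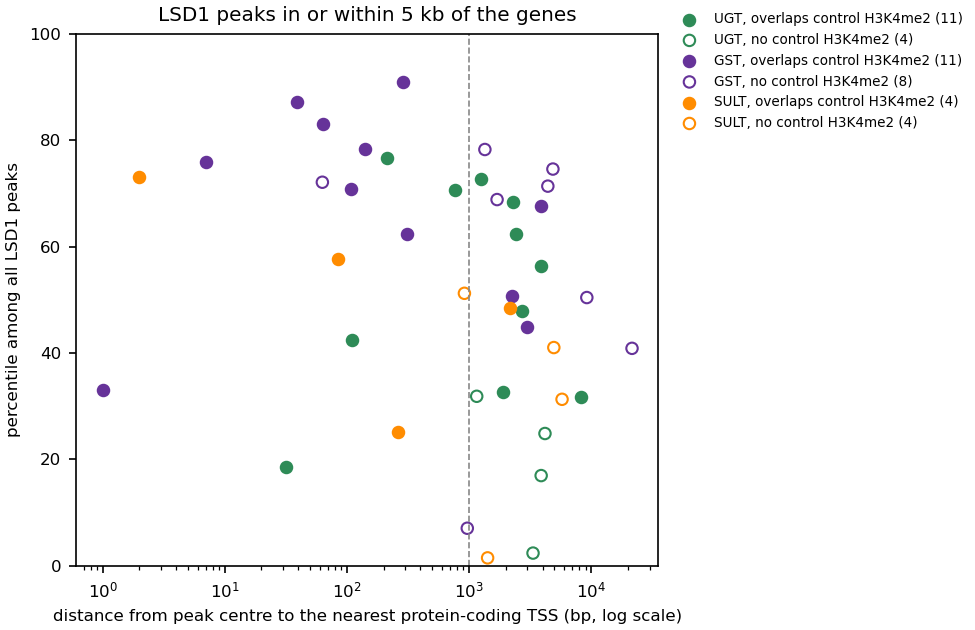
Percentile of each of the 42 LSD1 peaks among all LSD1 peaks (y axis) against the distance from its centre to the nearest protein-coding TSS in bp (x axis, log scale), colored by family and filled where the peak overlaps a control H3K4me2 peak; the dashed line is at 1 kb. The peak at the Gstp3 promoter is the highest at 91.0, and 26 of the 42 peaks are filled.

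The highest LSD1 peak lay at the promoter of Gstp3, a pi class gene, whose enzymes conjugate electrophiles with glutathione. It spanned chr19:4059063-4060409 and was enriched 4.23-fold and 5.39-fold in its libraries (percentile 91.0). It was the only one of the 42 peaks at or above percentile 90. The pi class cluster, Gstp1 to Gstp3, spans 24.2 kb and held 5 LSD1 peaks within 5 kb of its genes. The peaks starting at chr19:4054742 and chr19:4055249 share their second-library values (4.61-fold). Those starting at chr19:4059063 and chr19:4060596 also share theirs (5.39-fold). Each pair thus matches a single peak of the second-listed library. Gstp1 had a promoter peak at percentile 78.3, with a fold enrichment of 2.67 and 4.95. The peak at Gstcd, whose protein carries a GST C-terminal domain, followed Gstp3 at percentile 87.2 (3.76 and 4.99), and it lay 39 bp from the TSS. This promoter is shared with Ints12, a gene on the other strand. Gstz1, the maleylacetoacetate isomerase of tyrosine breakdown, had 3 promoter peaks at percentiles 83.0, 62.4 and 7.08, at a promoter shared in part with Pomt2. Gsto1, an omega class enzyme that reduces dehydroascorbate, had a peak at percentile 75.9, and Gstk1, a kappa class enzyme of mitochondria and peroxisomes, at 70.9. In the mu class, Gstm6 had a promoter peak at 72.1 and Gstm7 at 33.1. No alpha or theta class promoter was bound.

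Among the UGT genes the highest LSD1 peak was at Ugt3a1, which belongs to a small subfamily that uses sugars other than glucuronic acid. It spanned chr15:9279181-9280049, with a fold enrichment of 4.01 and 3.86 (percentile 76.6). Ugt2b enzymes act on steroids, bile acids and drugs. Ugt2b36 had a promoter peak at percentile 42.4, Ugt2b37 at 31.9 and Ugt2b35 at 18.6. The Ugt2b37 peak reached the promoter by 1 bp, and its centre lay 1155 bp from the TSS. These Ugt2b peaks therefore lay below the median percentile of all LSD1 promoter peaks. Of the SULT genes, Sult1a1, the phenol sulfotransferase, had a peak across its TSS at percentile 73.1 (3.32 and 4.29) and 3 more peaks within 5 kb. Among these 3 is the peak close to the Sgf29 TSS. Sult2a8, a bile acid sulfotransferase of mouse liver, had a promoter peak at 57.7 (3.32 and 3.46). Most of these scores were low. Only the peaks of Gstp3, Ugt3a1 and Gstk1 had q at or below 0.05 in both libraries, and only that of Gstp3 had p at or below 1e-05 in both.

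LSD1 peaks were next compared with the H3K4me2 peaks. Of the 42 peaks, 26 overlapped a control H3K4me2 peak (61.9%, 95% Wilson interval 46.8 to 75.0) and 22 overlapped an LSD1-LKO H3K4me2 peak (52.4%, 37.7 to 66.6). These intervals cover counting error only. The shares over all LSD1 peaks were 52.5% and 53.8%. At the promoters, 14 of 17 LSD1 peaks overlapped control H3K4me2, against 91.7% of all LSD1 promoter peaks. Outside the promoters of these genes, 12 of 25 did. The peaks at Gstm6 and Ugt2b37 and 1 of the 3 at Gstz1 were the promoter peaks without control H3K4me2. In all, 12 peaks overlapped neither H3K4me2 list.

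The second question was which promoters carried H3K4me2 in control liver and in LSD1-LKO liver. In the control list 39 promoters (59.1%) were marked, against 58.8% of all protein-coding genes. In the LSD1-LKO list 43 (65.2%) were marked, against 58.9%. Both lists marked 35 of the genes. Neither list marked 19 (28.8%), against 38.0% of all protein-coding genes. H3K4me2 was at 14 UGT promoters in control and 13 in LSD1-LKO, at 19 and 21 GST promoters, and at 6 and 9 SULT promoters. Every Gstm, Gsta, Gstp and Gsto gene and all 7 Ugt2b genes were marked in at least 1 list. Both Sult3a and both Sult6b genes, Ugt8a, the ceramide galactosyltransferase of myelin, Sult1e1, the estrogen sulfotransferase, and Gstt4 were marked in neither. Across the gene bodies and 5 kb around them, 10 of the 66 genes had no peak in any of the 3 lists. This held for 6149 of all 21853 protein-coding genes, a larger share. Of the 10 genes, 8 were SULT genes.

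In the control list alone 4 promoters were marked (6.06%, against 3.09% of all protein-coding genes), and in the LSD1-LKO list alone 8 were (12.1%, against 3.18%). Neither count was stable. With p at or below 1e-05 in both libraries they were 9 and 5, and with q at or below 0.05 they were 5 and 5. The 4 promoters of the control list were those of Sult1c2, Gsta1, Ugt2b37 and Ugt2b38. Sult1c2, a cytosolic phenol sulfotransferase gene, had the strongest of these peaks, at percentile 57.7 of the control list with a fold enrichment of 2.67 and 6.12. The closest LSD1-LKO peak lay 22.5 kb away. Gsta1, an alpha class gene, had a peak at percentile 45.3 (4.43 and 3.60), and an LSD1-LKO peak lay 0.581 kb from it. It was marked in both lists when promoters reached 2 kb. Ugt2b37 and Ugt2b38, the near-identical pair shown above, had peaks at percentiles 0.869 and 2.74, close to the bottom of the list. Ugt2b37 no longer had a listed peak with p at or below 0.01 in both libraries.

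The 8 promoters marked in the LSD1-LKO list alone were those of Gstm2, Gstm3, Gstm6, Ugt2b5, Sult2a2, Sult2a3, Sult4a1 and Sult5a1. Sult4a1, a gene known from the brain, had the highest percentile at 73.7 (3.69 and 6.61), in a promoter rich in CpG for this set (observed over expected 0.53). Sult5a1 followed at 58.5 (3.60 and 5.37), with a control peak 3.86 kb away. In the mu class, Gstm6 had a peak at 51.0 (3.53 and 4.25), Gstm2 at 41.3 (3.32 and 4.30) and Gstm3 at 18.6 (2.95 and 3.22). These genes are neighbors, and control peaks lay 5.21, 4.55 and 2.06 kb from them. The Sult2a genes sulfate steroids and bile acids. Sult2a3 had a peak at 30.9 (2.95 and 3.94) and Sult2a2 at 5.18 (2.22 and 2.86). Ugt2b5 had a peak at 14.7 (2.65 and 2.96) with a control peak 1.43 kb away. The median percentile was 36.1 for the LSD1-LKO group and 24.0 for the control group, against 43.0 and 38.5 over all genes marked in 1 list alone. Gstm6 was the only one of the 12 that kept its state under all 7 other settings tried for promoters. The others lost it at p of 1e-05, with up to 2 more settings.

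Copies with nearly the same sequence limit these calls, because a read that fits several copies can be placed at any of them. The share of 32-base words of a promoter that occur once in the genome had a median of 90.9% over the 66 genes and was below 90% in 32 of them. It was 15.2% for Gsta1, 20.7% for Sult2a2, 39.9% for Ugt2b38, 60.9% for Ugt2b5 and 75.3% for Ugt2b37. Of the promoters marked in 1 list alone, 3 of 4 in control and 5 of 8 in LSD1-LKO were below 90%. Sult1c2 in control, and Gstm3, Sult4a1 and Sult5a1 in LSD1-LKO, were above it.

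The third question was how much of each promoter the H3K4me2 peaks covered. Covered lengths here and below are those of the intervals of the first-listed library of each group. Among the 47 genes marked in either list, the covered length was lower in LSD1-LKO for 25 (53.2%) and higher for 22. Over all marked protein-coding genes it was lower for 60.1% and higher for 39.4%. The median difference, LSD1-LKO minus control, was −35 bp, against −111 bp over all marked genes. It was −230 bp for UGT, 24 bp for GST and 96.5 bp for SULT genes. The sign of the median was not stable. It was 7.5 bp with 1 TSS per gene and 44 bp with the intervals of the second-listed library. The control median was 1242 covered bp, and the LSD1-LKO median was 1074.

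**Figure D3:**
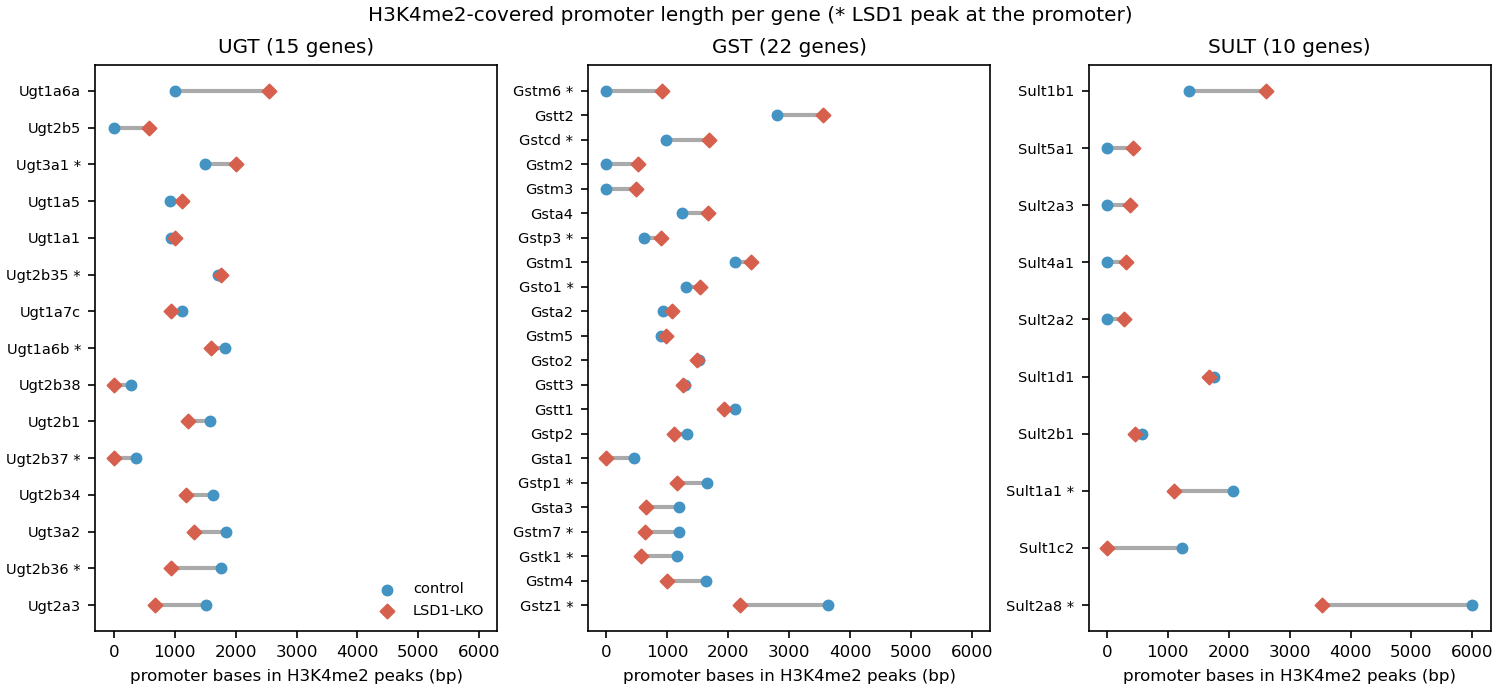
Promoter bases in listed H3K4me2 peaks (x axis, bp) in control (circles) and LSD1-LKO (diamonds) for the 47 genes marked in either list, by family and ordered by the difference; an asterisk marks an LSD1 promoter peak. Sult2a8 has the widest gap, from 5998 to 3525 bp, and Ugt1a6a has the largest gain, from 1003 to 2541 bp.

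The largest losses were at Sult2a8, Gstz1, Sult1c2, Sult1a1 and Ugt2a3. The share of promoter words that occur once in the genome was 76.7% for Sult2a8 and 76.3% for Ugt2a3. It was 99.9% for Gstz1, 96.0% for Sult1c2 and 100% for Sult1a1. The promoter of Sult2a8 spans 7768 bp. Of these, 6 control peaks covered 5998 bp and 4 LSD1-LKO peaks covered 3525 bp. Its highest peak nevertheless ranked similarly, at percentiles 82.0 and 85.1. Gstz1 had 3645 and 2189 bp, with percentiles of 89.2 and 85.5. Sult1a1 had 2076 and 1108 bp, and here the percentile was also lower, at 94.0 in control and 72.6 in LSD1-LKO. The fold enrichment of its highest peak was 4.43 and 10.1 in the control libraries and 3.32 and 6.23 in the LSD1-LKO libraries. Ugt2a3 had 1511 and 676 bp, with percentiles of 60.5 and 43.0. The losses of Gstz1, Ugt2a3 and Sult1a1 depended on the setting. The difference at Gstz1 was 50 bp with 1 TSS per gene and 23 bp at p of 1e-05. With the intervals of the second-listed library it was 728 bp at Ugt2a3 and −4 bp at Sult1a1. At p of 1e-05 neither list marked Sult1c2. Sult2a8, Gstz1 and Sult1a1 are 3 of the 15 genes with LSD1 at the promoter.

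The largest gains were at Ugt1a6a, Sult1b1, Gstm6, Gstt2 and Gstcd. The share of promoter words that occur once in the genome was 63.3% for Ugt1a6a, 78.4% for Sult1b1 and 84.9% for Gstm6. It was 98.8% for Gstt2 and 100% for Gstcd. Ugt1a6a, whose enzyme conjugates small phenols, had 1003 covered bp in control and 2541 in LSD1-LKO, and its percentile was 34.1 in control and higher in LSD1-LKO. With 1 TSS per gene it was marked in LSD1-LKO alone. Sult1b1, a sulfotransferase for thyroid hormones, had 1353 and 2619 bp, with percentiles of 70.3 and 69.5. The covered length was greater at both genes, while the percentile was higher only for Ugt1a6a. Gstm6 had 0 and 906 bp. Gstt2, a theta class gene, had 2807 and 3558 bp, and Gstcd had 972 and 1677 bp. With the intervals of the second-listed library the difference was −32 bp at Gstt2 and −8 bp at Gstcd, and at p of 1e-05 it was −972 bp at Gstcd. Gstm6 and Gstcd also had LSD1 at the promoter, so genes bound by LSD1 were among the losses and the gains as reported. Over the 15 genes with an LSD1 promoter peak, coverage was lower in 9 (60.0%) and higher in 6, with a median difference of −362 bp. Over all genes with an LSD1 promoter peak it was lower in 60.6% of those marked, with a median of −112.5 bp. Over the 32 marked genes without one, it was lower in 16 (50%) and higher in 16, with a median of 20.5 bp. Over all such genes it was lower in 59.8%, with a median of −109 bp.

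The percentile of the highest promoter peak was compared in the 35 genes marked in both lists. It was lower in LSD1-LKO for 24 and higher for 11, with a median difference of −3.71 points. Over all genes marked in both lists it was lower for 6066 and higher for 6115, with a median difference of 0.05. The median percentile of the 35 genes was 74.0 in control and 64.4 in LSD1-LKO, against 82.6 and 82.9 over all genes marked in both lists. With percentiles taken within each library, the mean over the 35 genes was 74.7 and 69.2 in the control libraries and 74.5 and 65.6 in the LSD1-LKO libraries. The libraries overlapped, and the means of the groups differed by −1.86 points (exact permutation test over libraries, two-sided, p = 0.667, n = 2 per group). The smallest p this design allows is 0.333, so it cannot reach 0.05. The labels do not say that the 2 libraries of a group came from separate mice, although their peak names carry different identifiers, so the spread may be technical.

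**Figure D4:**
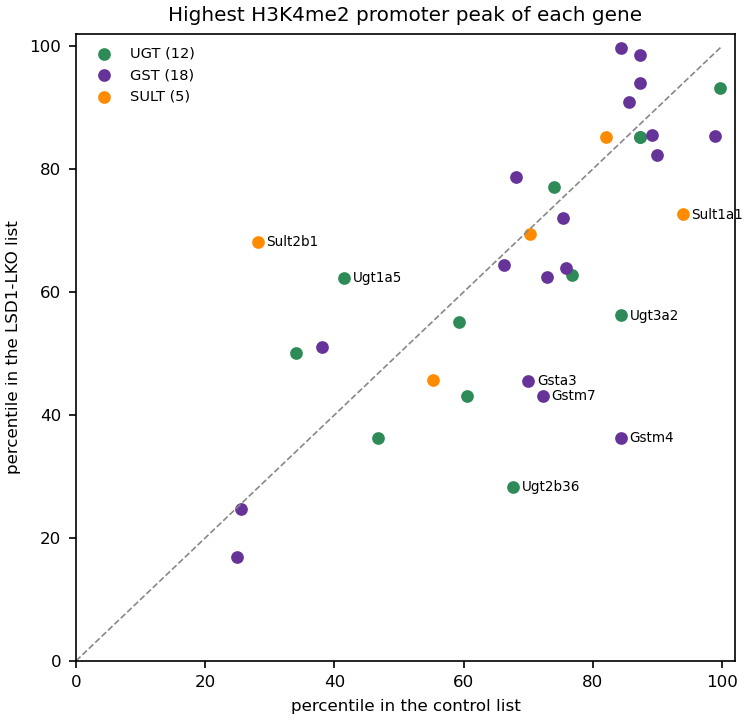
Percentile of the highest H3K4me2 promoter peak of each gene within the control list (x axis) and the LSD1-LKO list (y axis) for the 35 genes marked in both, colored by family; the dashed line marks equal percentiles and genes at least 20 points off it are named. More genes lie below the line (24) than above it (11). Over all genes marked in both lists, 6066 were lower and 6115 higher in LSD1-LKO.

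Single genes differed in both directions on this scale. The percentile of Gstm4 was 84.3 in control and 36.2 in LSD1-LKO, that of Ugt2b36 was 67.7 and 28.3 and that of Ugt3a2 was 84.4 and 56.2. Sult2b1, the cholesterol sulfotransferase, had 28.2 and 68.1, and Ugt1a5 had 41.5 and 62.3. Gstm5 had 84.3 and 99.7. Its peak was enriched 4.50-fold and 7.58-fold in the control libraries, and 5.41-fold and 11.8-fold in the LSD1-LKO libraries. Gstp1 had 6.34 and 11.2 in the control libraries and 5.91 and 5.31 in the LSD1-LKO libraries, and its percentile was 99.0 and 85.4. Ugt3a2 and Sult2b1 were named after their values were seen, and no difference of a single gene was tested.

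The genes lie at 22 loci, when genes of the set no more than 200 kb apart are joined. Of these, 11 are clusters that hold 55 of the 66 genes. Within 5 kb of the genes there were 143 control and 164 LSD1-LKO H3K4me2 peaks. An LSD1-LKO peak overlapped 67.8% of the control peaks, against 68.1% over the genome, and a control peak overlapped 71.3% of the LSD1-LKO peaks, against 64.1%. The covered length was 137.5 kb in control and 127.3 kb in LSD1-LKO (92.6%, against 97.7% over the genome). It was 57.5 and 53.4 kb for UGT, 53.4 and 53.6 kb for GST, and 26.7 and 20.2 kb for SULT genes. Most of the SULT difference, and a large part of that of the whole set, lay at Sult2a8. This gene had 11953 covered bp in control and 6417 in LSD1-LKO, so the totals do not describe the SULT genes in general. The totals of loci and clusters rest on first-library intervals and were not recomputed with those of the second-listed library.

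**Figure D5:**
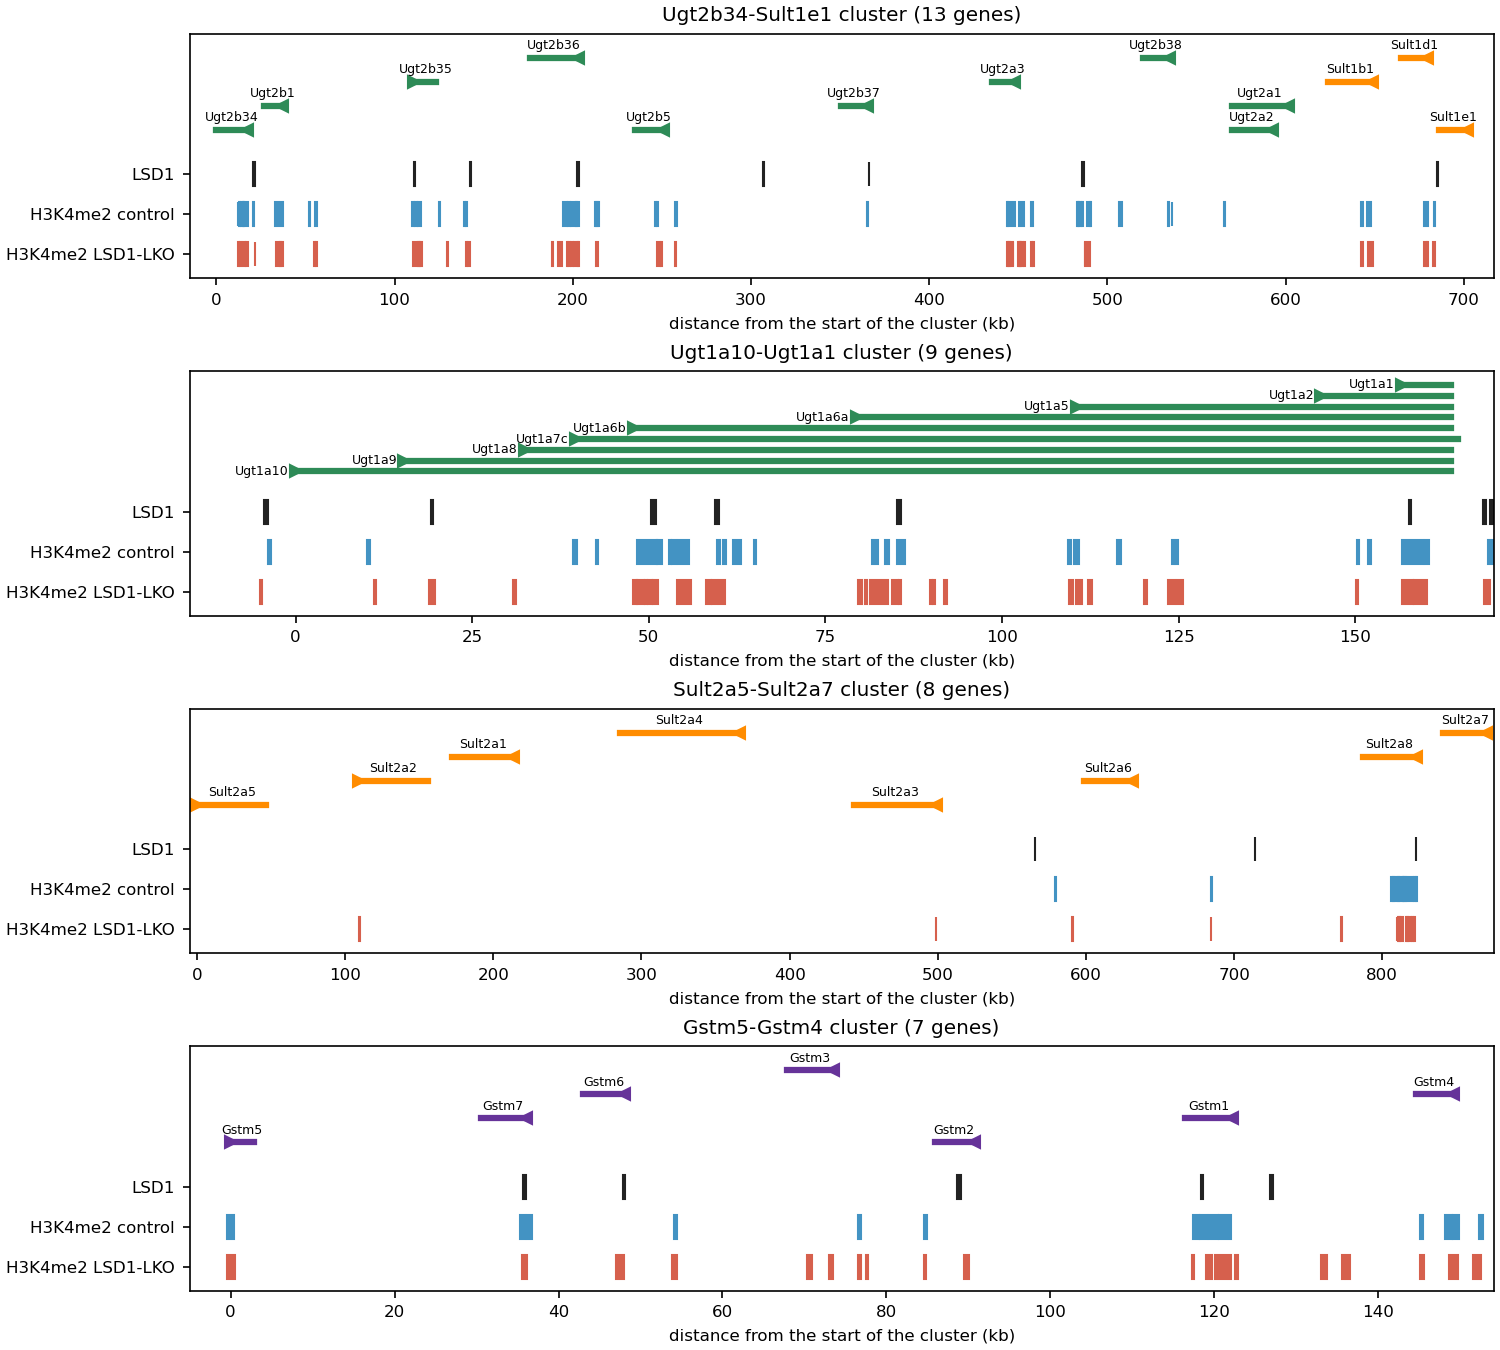
Maps of the 4 clusters with the most genes, with distance from the cluster start in kb on the x axis; colored lines are genes with an arrowhead at the gene start, and bars are all listed LSD1 and H3K4me2 peaks in the window, including those over 5 kb from a gene. The Sult2a cluster has no listed H3K4me2 peak over most of its 870 kb, and the 3 Gstm promoters marked in LSD1-LKO alone lie next to each other.

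The Ugt1a cluster (chr1:88055388-88220002) holds 9 overlapping genes. Ugt1a6b and Ugt1a7c share an exon at chr1:88103252-88103378, and Ugt1a6a and Ugt1a7c share one at chr1:88138473-88139331. All 9 share 3 exons with the same start and end, at chr1:88215044-88215175, chr1:88215795-88215882 and chr1:88216138-88216357. A further exon that starts at chr1:88218127 ends at 88218997 in 6 of the genes and at 88219004 in 2 others. A peak near the 3′ end thus lies in every gene body. There were 8 LSD1 peaks within 5 kb of the genes, 5 of them inside the cluster and 3 outside it. Of these 3, 2 lay nearest the TSS of another gene, Mroh2a. Only 1 of the 8 was at a promoter, that of Ugt1a6b (chr1:88105768-88106433, fold enrichment 4.15 and 3.14, percentile 70.7). Another, at percentile 72.7, lay 1250 bp downstream of the Ugt1a1 TSS and inside all 9 gene bodies (chr1:88213068-88213350). Ugt1a1 encodes the enzyme that conjugates bilirubin. Its promoter carried the highest-ranking H3K4me2 of the UGT genes in both lists, with percentiles of 99.7 in control and 93.2 in LSD1-LKO and covered lengths of 936 and 1004 bp. The fold enrichment of that peak was 5.05 and 5.35 in the control libraries and 3.15 and 3.90 in the LSD1-LKO libraries. Ugt1a5, Ugt1a6a, Ugt1a6b and Ugt1a7c were also marked in both lists, and Ugt1a6b and Ugt1a7c share a promoter and its peak. Ugt1a2, Ugt1a8, Ugt1a9 and Ugt1a10 were marked in neither. Within 5 kb of the Ugt1a genes, H3K4me2 covered 19446 bp in 27 control peaks and 23463 bp in 31 LSD1-LKO peaks.

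The cluster of Ugt2 and Sult1 genes (chr5:86889767-87591594) is the one with the most members, 13. Its H3K4me2 peaks covered 37396 bp in 31 control entries and 30940 bp in 38 LSD1-LKO entries. The entries are intervals of the first-listed library, and several share the values of a single second-library peak. Examples are the LSD1-LKO entries at Ugt2b1 (5.73-fold) and the control entries at Sult1b1 (6.84-fold). The number and width of entries therefore depend on how 1 library per group was split. Ugt2b1, Ugt2b34, Ugt2b35 and Ugt2b36 were marked in both lists. Their covered lengths were 1587 and 1225 bp for Ugt2b1, 1630 and 1187 bp for Ugt2b34, 1713 and 1764 bp for Ugt2b35 and 1767 and 935 bp for Ugt2b36, control first. In LSD1-LKO, 3 of them were shorter and Ugt2b35 was nearly equal. Ugt2a1 and Ugt2a2, best known from the nasal epithelium, share 5 exons and were marked in neither list. Sult1d1, a sulfotransferase for catecholamines, had 1758 and 1674 bp.

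The Sult2a cluster (chr7:13623967-14494230) holds 8 genes and was the emptiest of the large ones. Sult2a8 was marked in both lists and Sult2a2 and Sult2a3 in LSD1-LKO alone. Sult2a1, Sult2a4, Sult2a5, Sult2a6 and Sult2a7 were marked in neither. The share of promoter words that occur once in the genome was 20.6% for Sult2a1, 57.2% for Sult2a4 and 72.9% for Sult2a5. It was 87.3% for Sult2a7 and 99.6% for Sult2a6. Whether missing peaks at the close copies mean a missing mark was not tested. The 12 control peaks of the cluster covered 11953 bp and its 11 LSD1-LKO peaks 7080 bp. The 1 LSD1 peak within 5 kb of a gene was that of Sult2a8. In the Gstm cluster (chr3:107895821-108044894) the covered length was instead greater in LSD1-LKO, at 9384 and 10976 bp. Control marked 4 of its 7 genes and LSD1-LKO all 7. Coverage was higher in LSD1-LKO for 5 of the 7 genes, with a median difference of 268 bp. Gstm1, the main hepatic mu class gene, had 2106 and 2374 bp, while Gstm4 had 1639 and 990 bp and Gstm7 1187 and 639 bp. The Gstt cluster of 4 genes had no LSD1 peak within 5 kb. Its 12 control peaks covered 13490 bp and its 16 LSD1-LKO peaks 15008 bp, and Gstt1, Gstt2 and Gstt3 were marked in both lists.

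The other genes of the pathway were read in the same way. The list holds 33 genes that supply the donor molecules, export or hydrolyze conjugates, regulate conjugation or, in 3 cases, encode microsomal glutathione transferases. LSD1 was at the promoter of 10 (30.3%, against 23.6% of all protein-coding genes). H3K4me2 marked 32 in control (against 58.8% of all) and 31 (93.9%, against 58.9%) in LSD1-LKO. Coverage was lower in LSD1-LKO for 23 of 32 (71.9%, against 60.1%) and higher for 9, with a median difference of −318 bp (−111 bp over all marked genes). Of the microsomal transferases, Mgst1 had LSD1 at the promoter and covered lengths of 3934 and 1940 bp, while Mgst2 was marked in neither list. All 3 genes for the supply of UDP-glucuronic acid were lower, with Ugdh, the UDP-glucose dehydrogenase, at 1543 covered bp in control and 1118 in LSD1-LKO. Of the 4 genes for glutathione, 3 were lower. Gclm, the modifier subunit of the limiting enzyme of glutathione synthesis, had an LSD1 peak at percentile 88.4 and covered lengths of 1776 and 434 bp. Papss1, which makes the sulfate donor, had an LSD1 peak at percentile 97.7 and 1538 and 1034 bp. Abcc2, the canalicular exporter of conjugates, was the 1 gene marked in 1 list alone, with 437 bp in control. The 3 hydrolases Gusb, Arsa and Arsb had longer coverage in LSD1-LKO. Nfe2l2 and Keap1, the factor behind the antioxidant response and its inhibitor, both had LSD1 at the promoter, with covered lengths of 1832 and 1308 bp and of 1928 and 2098 bp. The pathway genes named here were picked after their values were seen, and none was tested. Their covered lengths were not recomputed with the intervals of the second-listed library.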

How the data were processed

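ChIP-seq peaks were read from 3 deposited lists, made from 6 ChIP libraries among the 12 samples. The authors aligned reads to mm10 using default settings of Bowtie 2, called peaks in each library with MACS2 against a control library and kept, with BEDtools (2.25.0 in the submitters' processing notes), peaks that overlapped between both libraries of a group. For the control libraries the labels give input with no antibody and the methods give IgG. Each peak's fold enrichment, a ratio, was deposited by the authors as MACS2 wrote it. The deposited −log10 scale p-values and q-values are MACS2 output as well, and some listed p-values are above 0.01. A further 12 columns of per-library values (integer scores and summit offsets) were not used.

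Here, intervals of the first-listed library were intersected with genes and TSSs of protein-coding transcripts in GENCODE mouse release 21 (GRCm38) with pandas 2.3.3 and numpy 2.4.6 under Python 3.11.15, and the overlaps were checked with bedtools 2.31.1. A promoter reached 1 kb and a flank 5 kb. Overlap functions were tested on simulated data. RefSeq windows were aligned with Biopython 1.88. Wilson intervals and the exact permutation test came from scipy 1.17.1. Clusters joined genes within 200 kb.

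The members and gene lists were chosen with earlier results of these data known. Genes named are those with LSD1 at the promoter, those marked in 1 list alone, the 5 largest gains and 5 largest losses of coverage, the top LSD1 gene of each family and the genes of the 5 clusters with the most members, and other genes are named only where the text says so or as counts by subfamily. Alternatives were wider promoters, 1 TSS per gene, stricter p or q, larger overlap, other flanks and the second-listed library's values for the same listed peaks. Sts, listed among the hydrolases, was not found in the annotation used and is not analysed here.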

Additional observations from a re-analysis of the deposited data

How the results depend on the processing

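Of 65 alternative values planned for the 10 summaries, 50 stayed within set limits and 15 did not. The limits were 1.5 times the reported count, the interval of the reported share or 1 SD of the library values. None of the values rests on a test. For the median covered length, the SD came from the first- and second-library values, so the second-library alternative had to fall outside it. The 7.5 bp with 1 TSS per gene counted as inside it, although the reported value was −35 bp. No paired analysis was possible because the lists carry no replicate numbers and the counts come from no test over samples. With p at or below 1e-05 in both libraries, 1 gene kept an LSD1 promoter peak, 1 gene an LSD1 peak in its body or 5 kb around, 1 distinct LSD1 peak remained, and 0% of it overlapped control H3K4me2 at the same threshold. At that threshold 22 promoters were marked in LSD1-LKO, 9 in control only and 5 in LSD1-LKO only. With q at or below 0.05 the LSD1 counts were 3 promoters, 3 gene bodies and 3 peaks, the share overlapping control H3K4me2 was 100%, and 5 promoters were marked in LSD1-LKO only. These thresholds leave fewer peaks by construction, with 1699 of 14584 LSD1 peaks at p of 1e-05. An overlap of 50% of the narrower interval gave a share of 45.2%, and gene bodies with no flank gave 27 LSD1 peaks. With the intervals and scores of the second-listed library for the same listed peaks, LSD1 was at 14 promoters and 32 gene bodies. There were 40 LSD1 peaks, a share of 72.5%, 39 and 43 marked promoters, and 4 and 8 in 1 list only. The median coverage difference was 44 bp and the median percentile difference was -2.67 points. Each of these intervals overlaps a first-library one by selection, so similar counts were largely fixed in advance. They do not show what that library would give by itself. Among alternatives chosen after seeing the data, counting only promoters with at least 90% of words once in the genome left 1 in control only and 3 in LSD1-LKO only. TSSs of all transcript types and the Ugt1a genes as 1 locus left the counts within 1.5 times. Depth is unknown, so how much of the difference between lists follows from sequencing depth was not tested.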
